A study of Homo sapiens with 6 samples.

Results

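ZNF genes encode zinc finger proteins, and 261 of the 56305 gene rows deposited for these acute myeloid leukemia cells formed the set described here. A gene entered it when its symbol was ZNF followed by a number and at most 1 letter, and its mean level in the DMSO libraries was 10 CPM or more (CPM is a gene's count scaled to the sum of all gene counts in its library). This took 260 of 557 ZNF rows, of which 53 had no count in any library. ZNF460 was added as the last gene, for its fall on the compound, so its values are given with no test and it is left out of every count of calls and every median fold change below. The other genes were selected on their measured DMSO level, and the same DMSO libraries also enter each fold change. Just inside the level were ZNF48 at 10.2 CPM and ZNF689 at 10.1 CPM, and just outside were ZNF296 at 9.99 CPM and ZNF527 at 9.92 CPM.

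The cells were MOLM13, a human AML line that carries the FLT3 internal tandem duplication and the t(9;11)(p22;q23) translocation in every library. Of 6 libraries, 3 came from cells given DMSO, the solvent, and 3 from cells given 1 μM ZW27941, both for 24 h. ZW27941 is a PROTAC, a molecule that brings METTL3, the writer of the m6A mark on RNA, to the VHL ubiquitin ligase for degradation. Nothing in the labels says that libraries of a group came from separate cultures, so p-values measure the spread between these libraries, which may be technical, and a single line stands for the disease.

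Most human ZNF proteins carry arrays of C2H2 zinc fingers, each folding around a zinc ion and reading a few bases of DNA. Many also carry a KRAB box, which recruits TRIM28 and, through it, SETDB1 and HP1 proteins, and this machinery silences retroelements and other repeats. Their genes lie in large clusters, above all on chromosome 19, that grew by tandem duplication.

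Gene counts summed to between 143454176 and 153825333 in the DMSO libraries and to between 143621822 and 178744976 in the ZW27941 libraries, against a planned 50M raw reads per sample in the labels. All 10 markers of this line were detected, among them MPO, FLT3 and CD33, and of the markers of other lineages CD3E, EPCAM and ALB had at most 6 counts in any library, with COL1A1 at 0.75 to 1.17 CPM. METTL3 mRNA was at 120, 122 and 122 CPM in DMSO and at 119, 121 and 128 CPM on ZW27941. These values overlapped, and because the compound acts on the protein they do not check the labels. Mitochondrial genes took 2.59% to 2.72% of gene counts in DMSO and 2.90% to 2.99% on ZW27941, and reads in no annotated feature 11.9% to 12.4% and 10.5% to 11.4%. Neither range overlapped between groups, and their part in the results below was not tested. The ZW27941 replicate 3 library stood apart from its group. Its chi-square per degree of freedom against the other ZW27941 libraries was 11.5 and 7.88, where the other pairs within a group gave 4.35 to 5.16, and 5.25% of its reads were not uniquely aligned, against 3.63% to 4.07% elsewhere. RNAs without a poly(A) tail were uneven too: in this library RNA5-8S5 was at 36.5 CPM, RPPH1 at 21.2 CPM and RMRP at 11.8 CPM, where the other libraries had at most 3.26, 6.02 and 3.07 CPM. These 3 were called higher, and RN7SL1 and RN7SL2 lower, and their part in the results below was not tested.

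The finger proteins share letters that can be read in their genes. The linker between neighbouring fingers is often encoded with GAGAAACC, shown in capitals in the first such site of 5 genes whose values are given below, each in frame, in 28 bases of the coding sequence (GENCODE release 29 transcripts, build GRCh38).
ZNF431, chr19:21183062-21183089, plus strand: tcatactggaGAGAAACCcttcaaatgt
ZNF714, chr19:21117078-21117105, plus strand: acatactggaGAGAAACCtttcaaatgt
ZNF493, chr19:21423517-21423544, plus strand: tcatactagaGAGAAACCctataaatgt
ZNF248, chr10:37831873-37831900, minus strand: acacacagggGAGAAACCgtttatatgt
ZNF736, chr7:64348529-64348556, plus strand: tcatactggaGAGAAACCttacaaatgt

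Of the 257 set genes with a coding sequence, ZNF460 included, 154 (59.9%) held these letters on the coding strand, against 6.81% of the 8883 genes with a coding sequence among all genes at 10 CPM or more in DMSO. They were found in 115 of 140 genes with a KRAB box (82.1%) and in 39 of 117 without one (33.3%). The median number of finger patterns per protein was 12 with a KRAB box and 7 without. GGACT, the most familiar form of the m6A motif, occurred at a median of 0.726 per kb of transcript in the set and 0.933 per kb at the same level. At least 1 GGACT was in 92.6% of set genes and in 91.6% at the same level. Median transcript length was 3949 and 3201 bases, and the median share of G and C was 43.5% and 48.6%. No m6A was measured, so the letters do not show whether any site was methylated.

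The ZNF set held genes that rose and genes that fell, with a median change near 0. Of its 260 genes, 50 were higher (19.2%) and 37 lower (14.2%) at an adjusted p under 0.05 in the quasi-likelihood test of edgeR (Benjamini-Hochberg adjustment). Over all 20399 genes tested, 16.3% were higher and 13.8% lower. Among the 9537 genes at 10 CPM or more in DMSO, the closer background, 25.3% were higher and 20.5% lower. DMSO means of the 260 genes ran from 10.1 to 266 CPM, with a median of 24.5 CPM. The background has no upper limit, so genes called the same level here share only the lower limit with the set. Groups did not overlap for 66 higher genes and 55 lower genes of the set, where 30.3% and 25.6% of genes at that level did not overlap (21.7% and 19.9% of all genes tested). The median log2 fold change, -0.0023 in the set, was 0.0068 over genes at the same level and -0.0019 over all genes tested. Without ZW27941 replicate 3, 57 were higher and 34 lower. The split between directions rests on the scaling: 42.5% of the called genes were lower with TMM factors and 58.2% with upper quartile factors. A fall in a bulk library can mean fewer cells with the transcript or less of it per cell, which cannot be told apart.

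The changes were small, in the set as among genes at the same level. The median size among called genes was 0.12 on the log2 scale in both directions, and 9 of the 260 genes moved by more than 0.25. At the same level, 413 of 9537 genes did. Called or not, the median size was 0.065 in the set and 0.074 at the same level. The set made up 1.01% to 1.02% of gene counts in DMSO libraries and 1.02% to 1.04% in ZW27941 libraries.

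**Figure D1:**
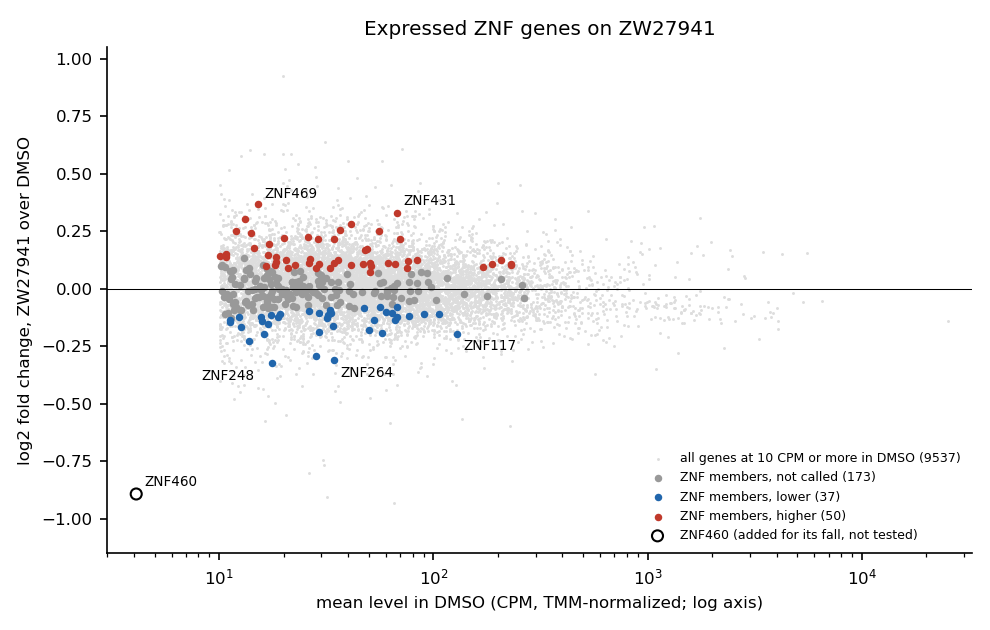
Log2 fold change on ZW27941 over DMSO (vertical axis) against mean DMSO level in TMM-normalized CPM (horizontal log axis) for the ZNF set and, in light grey, all 9537 genes at 10 CPM or more. The 50 higher and 37 lower genes lie within the spread of genes at the same level, between -0.32 and 0.37. ZNF460, under 10 CPM and added for its fall, lies apart at the lower left with a fold change of -0.89.

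ZNF460, a KRAB protein with 11 finger patterns, had the largest fall in the set, but it was added for that fall and from under 10 CPM. Its rank and the separation of its libraries are therefore no independent result. It was at 4.61, 4.06 and 3.63 CPM in the DMSO libraries and at 2.55, 2.34 and 1.73 CPM in the ZW27941 libraries. Every ZW27941 library was under every DMSO library, and the fitted log2 fold change was -0.89 ± 0.11 (SE, n = 3 and 3). Log2 fold changes of the 159 other ZNF genes tested under 10 CPM ran from -0.90 to 1.18. ZNF460 lies at chr19:57279982-57294069 (GRCh38.p14). Of its exonic bases, 13.9% overlap AC005261.5 on the opposite strand, and the strand setting of the counting is not known, so reads there could belong to either gene.

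The 10 largest rises and 10 largest falls were taken only from called genes whose groups did not overlap. Their calls and lack of overlap were therefore set by the choice. Among the 10 largest rises, ZNF469, a large protein whose loss causes brittle cornea syndrome, led. It was at 15.7, 15.2 and 14.7 CPM in DMSO and at 20.7, 19.8 and 18.3 CPM on ZW27941. The groups did not overlap, and the log2 fold change was 0.37 ± 0.04 (SE) with an adjusted p of 1.2e-06 in edgeR's quasi-likelihood test. ZNF431, a KRAB protein with 12 finger patterns, was at 69.0, 66.1 and 68.3 CPM in DMSO and at 87.6, 85.9 and 82.0 CPM on ZW27941. Its log2 fold change was 0.33 ± 0.03 (SE), with an adjusted p of 2.37e-08 by the same edgeR test. ZNF593, a nucleolar protein of ribosome assembly, went from 13.6, 12.9 and 13.2 CPM to 16.4, 15.3 and 17.2 CPM. Its log2 fold change was 0.30 ± 0.04 (SE), and all of its exonic bases (100%) overlap AL391650.1 on the opposite strand. The other rises were ZNF787 (0.28), ZNF768 (0.26), ZNF714 (0.25), ZNF69 (0.25), ZNF524 (0.24), the pseudogene ZNF252P (0.23) and ZNF362 (0.22).

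Of the 10 largest falls, 8 were in KRAB proteins, and ZNF117 and ZNF236 had no KRAB letters. ZNF248 was at 17.6, 17.4 and 18.2 CPM in DMSO and at 14.2, 13.8 and 14.5 CPM on ZW27941. All ZW27941 libraries were below all DMSO libraries, and the log2 fold change was -0.32 ± 0.04 (SE) with an adjusted p of 1.05e-06 in edgeR's quasi-likelihood test. ZNF264, which starts at -88.5 kb from the ZNF460 start, went from 36.5, 34.0 and 32.96 CPM to 27.5, 28.3 and 27.7 CPM, a log2 fold change of -0.31 ± 0.03 (SE). ZNF436 went from 26.7, 28.96 and 29.3 CPM to 23.1, 23.6 and 22.6 CPM, a log2 fold change of -0.29 ± 0.04 (SE). The groups did not overlap for either gene, as the choice of genes required. ZNF117, the most read of the falls, was at 127, 127 and 132 CPM in DMSO and at 111, 115 and 111 CPM on ZW27941. The others were ZNF286A (-0.23), ZNF611 (-0.20), ZNF736 (-0.19), ZNF236 (-0.19), ZNF493 (-0.18) and ZNF485 (-0.17), whose call was lost without ZW27941 replicate 1 (-0.13). ZNF286A shares 28.98% of its exonic bases with AC005324.4 on the same strand.

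**Figure D2:**
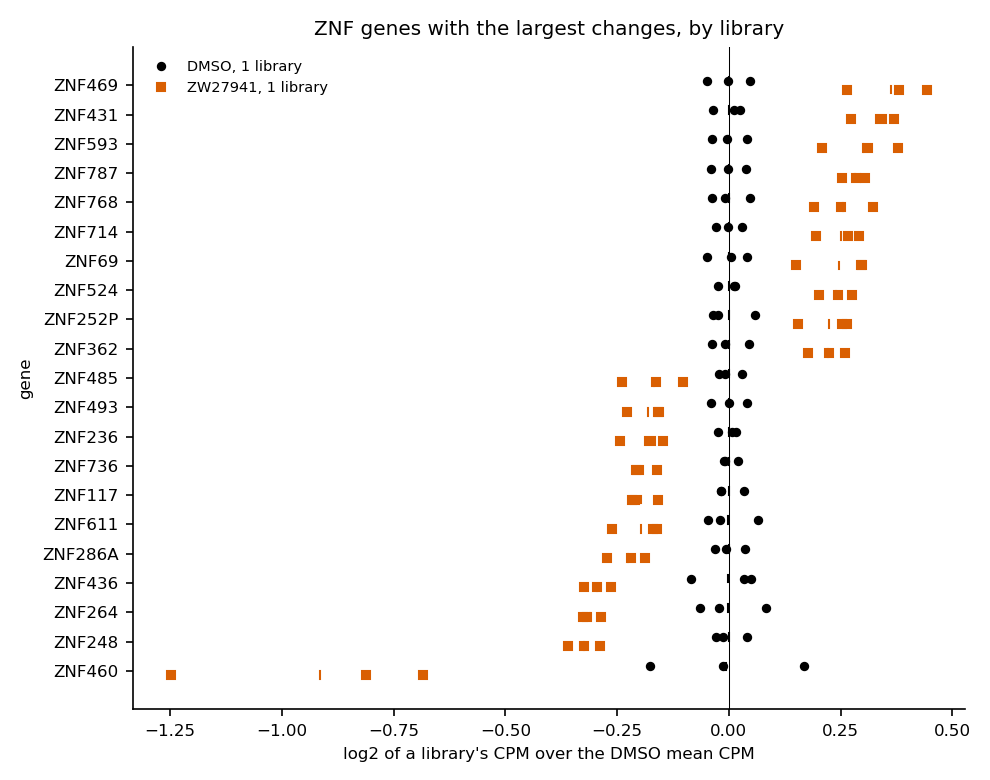
Each row is 1 of the 10 largest rises and 10 largest falls, with ZNF460 last, and the horizontal axis is log2 of a library's CPM over the DMSO mean; circles are DMSO libraries, squares ZW27941 libraries and short ticks group means. In every row the 3 squares lie on one side of the 3 circles, as the choice of genes required, and ZNF460 spreads most between libraries.

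The genes with the most reads moved little. By reads, which are not corrected for length, the highest in DMSO were ZNF395, ZNF318, ZNF146, ZNF207 and ZNF292. ZNF395 was at 255, 271 and 272 CPM in DMSO and at 254, 260 and 261 CPM on ZW27941, and ZNF318, a nuclear protein of RNA processing, at 254, 263 and 261 CPM and at 267, 266 and 253 CPM. Both overlapped between groups and neither was called, and 34.9% of the exonic bases of ZNF395 overlap FBXO16. ZNF146, which consists of fingers with no KRAB box, rose by 0.10 on the log2 scale, from 231, 226 and 232 CPM to 244, 248 and 249 CPM. ZNF207, also called BUGZ, a partner of the spindle checkpoint protein BUB3, rose by 0.11 and ZNF292 rose by 0.13.

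The set was also grouped by whether the protein held KRAB letters, after the values were seen and with no test of the difference. With KRAB letters (139 genes), 16 were higher (11.5%) and 26 lower (18.7%), the median log2 fold change was -0.018, and 87 of 139 had the lower mean on ZW27941. Without them (117 genes), 31 were higher (26.5%) and 11 lower (9.40%), the median was 0.023, and 45 of 117 had the lower mean. At the same level 4549 of 9537 genes had the lower mean on ZW27941. Beside the 25.3% higher and 20.5% lower of genes at the same level, the lower share of KRAB genes and the higher share of the others were near the background, and the opposite share of each class was under it. The summed level of the KRAB genes ran from 3864 to 3905 CPM in DMSO and from 3789 to 3871 CPM on ZW27941, so the groups overlapped. For the other class it ran from 6202 to 6241 CPM and from 6310 to 6405 CPM, with no overlap. With upper quartile factors 41 KRAB genes were lower, and without DMSO replicate 3 the count was 17.

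The genes were also grouped by number of fingers, with no test. Of 51 genes with 1 to 5 finger patterns, 14 were higher (27.5%) and 4 lower (7.84%), with a median log2 fold change of 0.030. Of 78 with 6 to 10 patterns, 16 were higher (20.5%) and 10 lower (12.8%), with a median of 0.013. Of 77 genes with 11 to 15 patterns, 8 were higher (10.4%) and 13 lower (16.9%), with a median of -0.022. Of 43 with 16 or more, 7 were higher (16.3%) and 10 lower (23.3%), with a median of -0.014, and of 7 with no pattern 2 were higher. These shares stand beside the same 25.3% and 20.5%. As a description over 256 genes, which share libraries and are not replicates, Spearman's rho of log2 fold change with finger number was -0.20. Over 8883 genes at the same level, of which 8455 had no finger pattern, it was 0.0007. In the set, rho with GAGAAACC per kb was -0.19. Finger number also went with the KRAB box (medians of 12 and 7), and their separate parts were not tested.

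**Figure D3:**
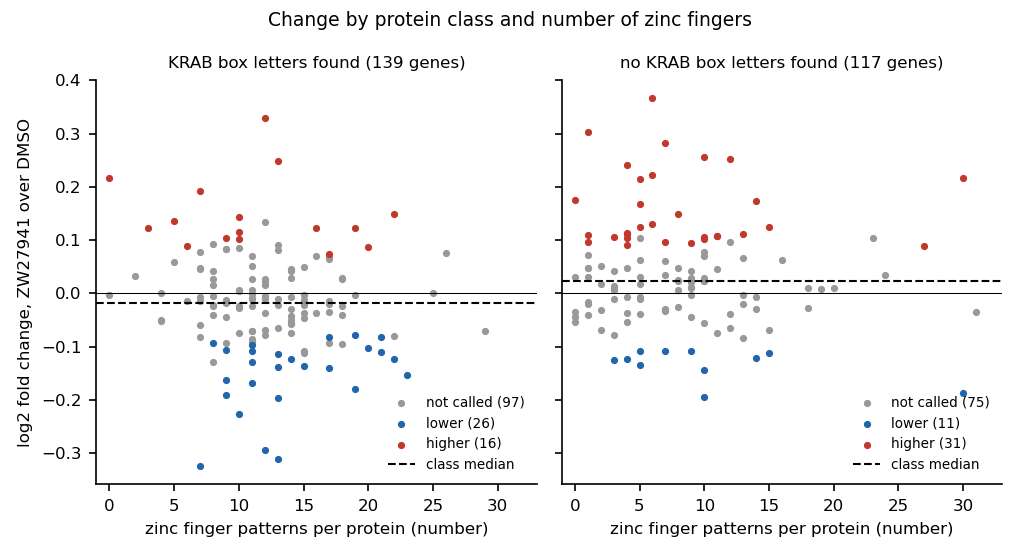
Log2 fold change on ZW27941 over DMSO (vertical axis) against the number of zinc finger patterns in the protein, for 139 genes with KRAB letters (left) and 117 without (right); each point is a gene, colored by call, and the dashed line is the class median. The medians lie on opposite sides of 0, at -0.018 and 0.023, and most genes of both classes were not called.

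By location, chromosome 19 held 103 genes of the set, of which 13 were higher (12.6%) and 17 lower (16.5%), with a median of -0.014. The 157 on other chromosomes had 37 higher (23.6%) and 20 lower (12.7%), with a median of 0.020. KRAB genes had 6 higher (7.32%) and 15 lower (18.3%) of 82 on chromosome 19 and 10 higher (17.5%) and 11 lower (19.3%) of 57 elsewhere. Genes without KRAB letters had 7 higher (35%) and 2 lower (10%) of 20 on chromosome 19 and 24 higher (24.7%) and 9 lower (9.28%) of 97 elsewhere. Against 25.3% higher and 20.5% lower at the same level, none of these lower shares was above the background.

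The stretches around ZNF460 and ZNF431 were chosen after the values were seen, each from 300 kb before to 700 kb after the gene's start. Around ZNF460, 26 ZNF genes had values and, besides ZNF460, those lower were ZNF264, ZNF543 (-0.19), ZNF548 (-0.13) and ZNF587 (-0.14). ZNF547, 83.6 kb from ZNF460, was the 1 that was higher (0.34), and the other 20 were not called. Around ZNF431, 9 ZNF genes were tested: ZNF431, ZNF714 and ZNF738 (0.22) were higher, ZNF493 was lower, and 5 were not called. Genes of other kinds were called in these stretches too. AURKC (-0.43) around ZNF460 was lower and VN1R81P (0.44) around ZNF431 was higher, at DMSO means of 1.37 and 3.75 CPM. The remaining genes of other kinds tested there were not called. Over all genes tested 16.3% were higher and 13.8% lower, and at 10 CPM or more in DMSO 25.3% and 20.5%. Whether changes cluster in either stretch was not tested.

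**Figure D4:**
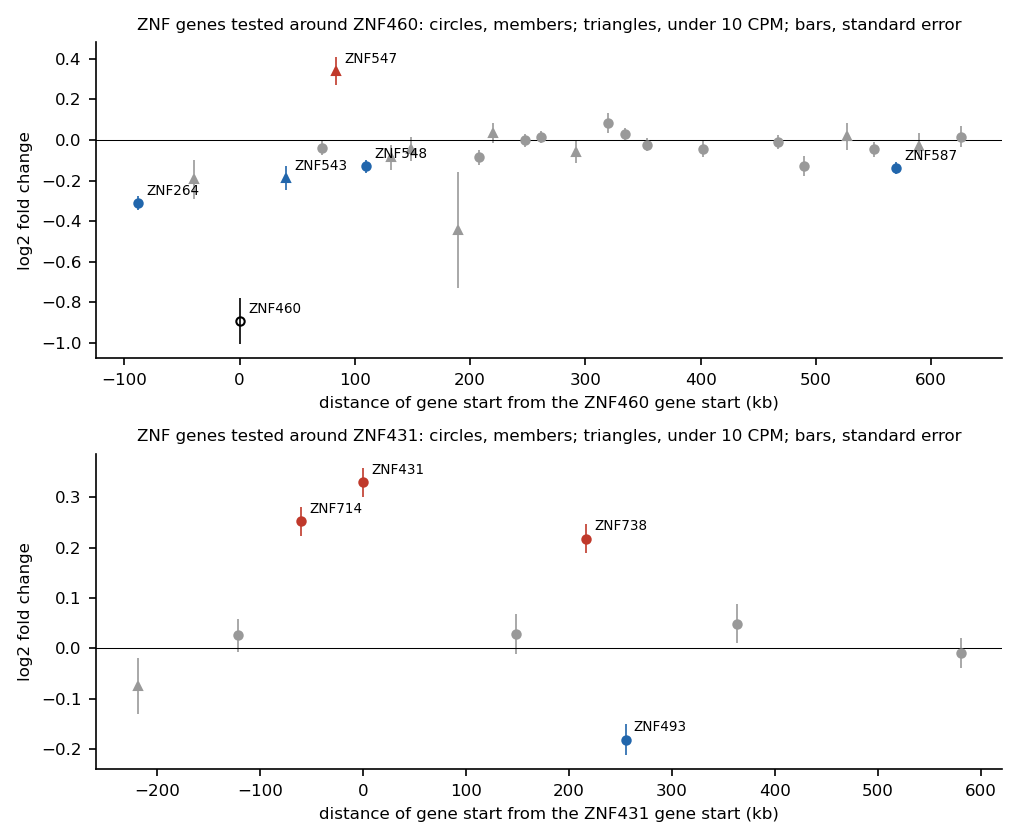
Log2 fold change with its standard error (vertical axis) of the ZNF genes tested around ZNF460 (top) and ZNF431 (bottom), by distance of the gene start in kb; circles are set genes, triangles ZNF genes under 10 CPM, and named genes passed the test except ZNF460 (open circle, not tested). Called and uncalled genes are interspersed, and ZNF547 and ZNF493 go the other way from the gene at 0 kb.

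The promoters of these genes were read from RefSeq (GRCh38.p14, plus strand), as the 250 bases before the start. ZNF431 and ZNF714, which rose together and start 59.8 kb apart, are shown because their windows are near copies, and ZNF460 and ZNF264 because both were lower and start under 100 kb apart. Capitals mark CCGGAAGT or its complement ACTTCCGG, the core letters bound by ETS factors.
ZNF431, chr19:21141790-21142039: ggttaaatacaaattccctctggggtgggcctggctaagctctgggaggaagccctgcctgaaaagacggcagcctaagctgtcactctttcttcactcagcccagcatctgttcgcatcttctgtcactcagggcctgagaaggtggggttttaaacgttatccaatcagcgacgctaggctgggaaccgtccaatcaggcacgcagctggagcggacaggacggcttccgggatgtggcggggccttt
ZNF714, chr19:21081953-21082202: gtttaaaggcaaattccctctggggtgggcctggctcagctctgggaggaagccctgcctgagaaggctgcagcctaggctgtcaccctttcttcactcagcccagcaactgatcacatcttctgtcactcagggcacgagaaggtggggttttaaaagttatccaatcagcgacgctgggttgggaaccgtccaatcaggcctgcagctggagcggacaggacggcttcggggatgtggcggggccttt
ZNF460, chr19:57279732-57279981: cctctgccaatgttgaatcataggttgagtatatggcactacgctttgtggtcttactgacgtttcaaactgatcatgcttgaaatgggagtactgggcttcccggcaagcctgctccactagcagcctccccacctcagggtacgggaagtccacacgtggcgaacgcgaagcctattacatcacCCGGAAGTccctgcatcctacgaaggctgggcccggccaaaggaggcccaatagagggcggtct
ZNF264, chr19:57191250-57191499: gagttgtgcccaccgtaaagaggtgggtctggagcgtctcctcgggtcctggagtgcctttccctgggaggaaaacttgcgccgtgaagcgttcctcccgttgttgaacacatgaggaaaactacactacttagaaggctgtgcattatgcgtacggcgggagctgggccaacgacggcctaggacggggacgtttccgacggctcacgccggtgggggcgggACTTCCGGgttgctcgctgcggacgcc

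ZNF431 and ZNF714 matched at 230 of 250 bases (92%). Of the other ZNF genes of the stretch, 6 had a window that was compared, and ZNF738 did not. ZNF493, which fell, matched ZNF431 at 83.4% after a shift of 3 bases (-3), and ZNF85, not called, at 84.8% after a shift of 6 (-6). CCGGAAGT on either strand was in 44 of 223 set promoters (19.7%), read as 300 bases from 250 before to 50 after the start, in 10.4% of promoters at the same DMSO level and in 4.42% of all 27305. GGGCGG, the core letters bound by SP factors, was in 61.4% of set promoters against 71.3% at the same level, and TGACGTCA, bound by CREB factors, in 4.93% against 3.48%. Over all promoters the shares were 44.5% and 1.97%, and both strands were searched. CCGGAAGT was in 8 of 38 promoters of set genes that were higher (21.1%) and in 7 of 36 of those that were lower (19.4%).

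The genes were then described by role. Of the ZNF repressors of retroelements, 5 were in the set, and 3 were lower (60%, where 20.5% of genes at the same level were) and none higher. ZNF611, which binds SVA elements, was at 16.9, 15.97 and 15.7 CPM in DMSO and at 14.5, 14.4 and 13.5 CPM on ZW27941. ZNF587 fell by 0.14 on the log2 scale and ZNF808 fell by 0.15, with groups that did not overlap. ZNF417 (0.02) and ZNF765 (-0.02) were not called. The call of ZNF808 was lost without DMSO replicate 1 (-0.099, adjusted p = 0.201 in edgeR's test) and without ZW27941 replicate 3 (-0.093, adjusted p = 0.122). ZNF93, a repressor of L1 elements under the level for the set, was lower too (-0.26), with the call lost without DMSO replicate 2 or 3 or without ZW27941 replicate 2 or 3. The list's other genes tested under that level, ZNF382 (-0.11) and ZNF534 (-0.31), were not called. Of its exonic bases, ZNF587 shares 33.3% with ZNF814 on the opposite strand, and the strand setting of the counting is not known. ZNF808 shares 14.2% on the same strand with ZNF701, which was higher (0.34). ZNF417 shares 24.1% of its 100-base windows with ZNF587, which shares 12.4% of its own with ZNF417. Reads from these shared stretches may therefore have been left out of the counts of each pair, as ambiguous or not uniquely aligned. How far this moved the counts was not tested.

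Of 15 partners of chromatin complexes in the set, 4 were higher (26.7%), near the 25.3% of genes at the same level. None was lower, where 20.5% of genes at that level were. The 4 were ZNF148 (0.11), ZNF516 (0.11), ZNF644 (0.10), which works with the histone methyltransferases G9a and GLP, and ZNF274 (0.09), a KRAB protein that recruits SETDB1 to ZNF genes. Of 13 with roles in RNA or ribosomes, 4 were higher, with ZNF593, ZNF207 and ZNF622 (0.11) among them, and ZNF346 (-0.12), which binds double-stranded RNA, was lower. Of 4 tied to blood cells or leukemia, ZNF362 and ZNF521 (0.09) were higher. Several of these calls depended on 1 library. ZNF644 lost its call without DMSO replicate 2 or ZW27941 replicate 1, ZNF274 and ZNF521 each without DMSO replicate 1 or 2 or ZW27941 replicate 1 or 2, and ZNF346 without DMSO replicate 1 or 2 or ZW27941 replicate 2 or 3. With upper quartile factors ZNF644, ZNF274 and ZNF521 were not called. At 26.7%, 30.8% and 50% of small lists, the higher shares stand beside 25.3% of genes at the same level.

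The proteins that KRAB boxes recruit were tested as the rest of the pathway. Of 23, 6 were higher (26.1%) and 4 lower (17.4%), near the 25.3% and 20.5% of genes at 10 CPM or more. TRIM28, the corepressor itself, was at 337, 345 and 335 CPM in DMSO and at 313, 303 and 321 CPM on ZW27941. Its log2 fold change was -0.12 ± 0.03 (SE), with an adjusted p of 0.00142 in edgeR's quasi-likelihood test. EHMT2, which encodes G9a, fell by 0.11 on the log2 scale. MORC2, an ATPase that works with the HUSH silencing complex, rose from 49.4, 50.6 and 50.6 CPM to 59.6, 59.7 and 59.6 CPM (0.25), and CHD4 rose by 0.12. SETDB1 was not called (0.03). The count of 6 higher was 2 without DMSO replicate 3, ZW27941 replicate 1 or ZW27941 replicate 2, and 3 without DMSO replicate 1.

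Other zinc finger families, taken by symbol alone, were counted the same way. Of 59 ZBTB, ZSCAN, ZKSCAN, ZFP and KLF genes at 10 CPM or more, 13 were higher (22.0%) and 8 lower (13.6%), beside 25.3% and 20.5% of genes at that level. ZBTB genes had 7 higher and 2 lower of 28, KLF genes 4 higher and none lower of 9, ZSCAN genes 1 higher and 3 lower of 8, ZFP genes 1 higher and 2 lower of 9, and ZKSCAN genes none higher and 1 lower of 5. The 13 became 8 without DMSO replicate 2 or ZW27941 replicate 2, and the 8 became 4 without DMSO replicate 1.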

How the data were processed

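RNA from MOLM13 cells was sequenced in 6 libraries. Unnormalized read counts for each symbol were deposited by the authors. The submitters' processing notes name HISAT2, SAMtools 1.19.2, HTSeq 2.0.3 and hg38. The annotation release and strand setting are not given in the sources used here. The 5 tallies of unassigned reads were left out (37.4% to 39.8% of all reads tallied).

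Tests used edgeR 4.0.16 under R 4.3.3 (TMM factors, filterByExpr, quasi-likelihood test, Benjamini-Hochberg adjustment over 20399 genes, threshold 0.05). CPM for the rule used gene counts only, and printed CPM used TMM factors. On simulated counts with 200 changed genes of 20399, 81 of 100 were recovered at a log2 change of 0.3 and 92 of 100 at 0.6, with 7 false calls. The simulation used a single dispersion for all genes and changed far fewer genes than were called in the data. It held no change as small as 0.12, the median size of the set's called genes. Recovery and false calls at such sizes were not tested. Alternatives used DESeq2 1.42.0, other scalings, filters and tests, a replicate block, and each library left out.

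The set and the gene lists were chosen with earlier results of these data known. Named genes were ZNF460, METTL3, the 10 largest rises and 10 largest falls among called genes without overlap, the 5 highest in DMSO, the 2 genes on each side of the level, and the 4 called genes with the lowest p in each list. Genes named by their place or promoter were chosen after their values were seen. Positions are from RefSeq, where 259 symbols matched directly and 2 as synonyms. Fingers were counted in the longest coding sequence of GENCODE release 29 as 2 cysteines 2 or 4 residues apart, 12 residues and 2 histidines 3 to 5 residues apart, and a KRAB box was called from either of 2 amino acid patterns. The 4 genes with no coding sequence were left out of both classes. Some markers of other lineages are not reported here.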

Additional observations from a re-analysis of the deposited data

How the results depend on the processing

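No called gene of the set changed sign under any alternative. Set genes higher and lower, 50 and 37, became 49 and 40 with RLE factors, 41 and 57 with upper quartile factors, 58 and 30 with library size only, 46 and 38 in DESeq2, and 37 to 57 and 27 to 34 with 1 library left out. At 20 CPM or more, 35 of 155 were higher and 24 lower. KRAB genes lower, 26, became 41 with upper quartile factors, and 1 library left out gave 17 to 25 lower and 10 to 18 higher, the 10 without ZW27941 replicate 2. For the other class it gave 7 to 11 lower, the 7 without DMSO replicate 1 or 2. KRAB partners higher, 6, became 2 with upper quartile factors and 2 to 5 with 1 library left out, and the other families gave 8 to 14 higher and 4 to 7 lower. The set's median of -0.0023 became -0.026 with upper quartile factors, 0.0078 with library size only, 0.0032 with no filter, 0.0038 at 20 CPM or more, and -0.0044 to 0.0055 with 1 library left out. ZNF318 turned to -0.0059 and METTL3 to -0.010 with upper quartile factors, and METTL3, at 0.013, gave -0.023 (without ZW27941 replicate 3) to 0.035 with 1 library left out. Of 630 values of 45 named genes over 14 alternatives, 601 kept direction and call, and 26 lost the call, in 8 genes. For the 20 largest rises and falls, 279 of 280 were kept. The cause was not tested. The class counts were added after seeing the data.

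Replicate numbers did not pair the libraries: same-numbered libraries had correlations of -0.0247, -0.0018 and 0.0864. With the replicate block, 48 were higher and 34 lower, and 80 of 87 calls remained.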

Other observations

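Among the 159 ZNF genes tested under 10 CPM, 13 were higher (8.18%) and 12 lower (7.55%), beside 16.3% and 13.8% of all genes tested. All genes tested include those at 10 CPM or more, of which 25.3% were higher and 20.5% lower. That background is therefore not matched in level, and no lower share than elsewhere can be read from it. The called ZNF genes under 10 CPM, named after their values were seen, included ZNF137P. It went from a mean of 5.10 to 7.05 CPM, a log2 fold change of 0.47 with an adjusted p of 4.28e-06 in edgeR's quasi-likelihood test. ZNF703, a corepressor known from breast cancer, went from 9.35 to 11.4 CPM (0.28), and ZNF235 went from 6.69 to 5.48 CPM (-0.29). Genes of the other families were also named after their values were seen. KLF4, a factor of monocyte differentiation, went from a mean of 19.8 to 25.6 CPM (0.37). ZFP36, which speeds decay of AU-rich mRNAs, went from 159 to 138 CPM (-0.21), and ZSCAN30 from 44.7 to 38.5 CPM (-0.22).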
